A study of Homo sapiens with 12 samples.

Results

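The plasminogen activators and matrix metalloproteinases are enzymes that cut the proteins around cells, and 9 genes of this system were followed through silencing of CBX7 in 2 human cancer cell lines. The 9 genes are PLAU, PLAUR, PLAT, SERPINE2, MMP1, MMP2, MMP3, MMP14 and TIMP1, taken as a list of gene names that was proposed with earlier results of these data in view, out of 29890 genes listed for 5637 cells and 58735 listed for 786-O cells. All 9 were found in each table. The data are RNA-seq of 12 libraries, with 3 shCBX7 and 3 sh control libraries in 5637, a bladder cancer line, and 3 and 3 in 786-O, a renal cancer line. All cells were grown in RPMI-1640 with serum, and the labels give no other treatment. The shCBX7 libraries come from cells in which a short hairpin RNA lowers CBX7, a chromobox subunit of Polycomb repressive complex 1 that helps keep target genes silent. Neither the hairpin sequences and their number nor any pooling or cloning of the cells is given in the sources used here. The table headers name the arms si and control (or SiNC), where the sample titles say sh. For 2 of the 5637 controls the title differs from the cell line label in the line's number, and the cell line label was used.

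Urokinase (PLAU) and tissue-type plasminogen activator (PLAT) are secreted serine proteases that turn the inactive plasminogen into plasmin, a broad protease that degrades fibrin and matrix. Urokinase acts while held at the cell surface by its receptor PLAUR, and serpins such as SERPINE2 trap the activators in inactive complexes. Matrix metalloproteinases (MMPs) are zinc enzymes made as inactive precursors, which plasmin and other proteases can activate, and TIMP proteins block the active enzymes. In bladder and kidney tumours, as in other carcinomas, this system is studied for its part in invasion.

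Values are FPKM, a read count scaled to gene length and library total, so levels can be set beside each other between genes of a line. The tables of the lines were made separately, so levels are not tested across lines. Changes are differences of log2(FPKM + 1), shCBX7 minus control, which understate the change of genes with low values. They were tested with limma over every gene whose mean in a line reached 0.5 FPKM, and a gene was called where its Benjamini-Hochberg adjusted p was under 0.05. Of the 9 genes, 8 passed this filter in each line, and MMP3 passed in neither. Nothing in the labels tells whether an arm's libraries were separate cultures. The p-values therefore cover the spread among these libraries alone, and that spread may be technical. In bulk RNA, fewer expressing cells and less RNA per cell cannot be told apart.

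The targeted gene fell in each line. CBX7 was 2.26 ± 0.14 FPKM in control and 1.88 ± 0.09 FPKM in shCBX7 libraries of 5637 (SD, n = 3 each), 0.833 times the control level. In 786-O it was 1.62 ± 0.13 and 0.990 ± 0.089 FPKM (SD, n = 3 each), 0.610 times the control level, so by these values the lowering of CBX7 was not of the same depth in the lines. Of its 7461 exonic bases, 1338 are also exonic in AL031846.2 on the opposite strand and 274 in COX5BP7 on the same strand. The sources used here do not give how reads of such bases were counted. Reads recovered from the FPKM lay between 17744835 and 29198095 per library for 5637, over the 28077 of 29890 genes that gave whole reads. For 786-O they lay between 16384151 and 18868874, over all 58735 genes. The library totals implied by the FPKM scaling were 19784641 to 32544606 for 5637 and 16503790 to 18966972 for 786-O. Urothelial and epithelial markers summed to 2139 to 2156 FPKM in control and 2332 to 2359 FPKM in shCBX7 libraries of 5637. Of 11 tested members 8 were higher and 2 lower, where 24.4% and 20.2% of all tested genes were. In 786-O these markers summed to 332 to 403 FPKM in control and 432 to 480 FPKM in shCBX7 libraries. There 3 of 6 tested members were higher (24.7% of all tested genes). All 8 renal markers together came to at most 0.952 FPKM in 5637. In 786-O they summed to 39.2 to 42.04 FPKM in control and 31.2 to 32.04 FPKM in shCBX7 libraries. There 2 of 3 tested members were lower (26.2% of all tested genes). Most of the sum was PAX8, which fell from 37.8 ± 1.5 to 30.3 ± 0.4 FPKM (SD, n = 3 each, limma adjusted p = 0.00104). PAX8 was among the 3 renal markers tested there, so it was not the only one expressed. Of the 5 not tested, the proximal tubule markers LRP2, SLC22A6 and NAT8 were at or near 0. Of other cell types, the leukocyte genes PTPRC and CD3E and the fibroblast genes COL3A1 and DCN were at 0.01 FPKM or less on average in each arm of each line. The summed leukocyte list ran from 44.2 to 46.3 FPKM in control and 38.9 to 39.8 FPKM in shCBX7 libraries of 5637, and from 18.02 to 21.98 and 11.5 to 12.9 FPKM in 786-O. Most of it was LAPTM5, at 43.5 and 37.5 FPKM on average in the arms of 5637 and 17.5 and 8.07 FPKM in those of 786-O. CSF1R of the same list went the other way in 786-O, from 1.38 ± 0.10 to 3.16 ± 0.23 FPKM (SD, n = 3 each, limma adjusted p = 7.79e-05). The summed fibroblast list ran from 19.7 to 19.9 and 17.6 to 18.5 FPKM in 5637, mostly COL1A1, and from 2.41 to 2.79 and 3.26 to 3.82 FPKM in 786-O, mostly LUM. The summed endothelial list was at most 2.37 FPKM in 5637 and 1.04 FPKM in 786-O. The part of these markers in the results was not tested.

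Silencing of CBX7 gave larger log2 changes in 786-O than in 5637 for all tested genes of the system but MMP2. Rises over all tested genes were larger in 786-O too. There 17.7% of them exceeded the 0.34 of TIMP1, while in 5637 8.63% exceeded the 0.24 of MMP2. Whether the system moved more than other genes did was not tested. In 786-O, 7 of the 8 tested genes rose and none fell, where 51% of all 13220 tested genes were called, 24.7% as higher and 26.2% as lower. In 5637, 5 of 8 rose and 1 fell, where 44.5% of 12689 tested genes were called, 24.4% as higher and 20.2% as lower. The median change of the 8 genes was 0.59 in 786-O (all tested genes, -0.01) and 0.09 in 5637 (all tested genes, 0.01), on the log2 scale. The share of all tested genes that rose more was 0.734% for PLAU in 786-O and 32.7% in 5637. In that order it was 1.51% and 5.77% for MMP1, 4.49% and 39.5% for MMP14, and 6.32% and 26.6% for PLAUR. It was 8.37% and 35.3% for SERPINE2, 10.9% and 19.02% for PLAT, and 55.9% and 8.63% for MMP2. For TIMP1 it was 17.7% in 786-O, and in 5637, where TIMP1 fell, 11.1% fell more. The arms did not overlap for any of the 8 genes in either line, as for 60.3% of all tested genes in 786-O and 56.4% in 5637. The shCBX7 arm was the higher one for 7 of the 8 in 786-O (29.2% of all tested genes) and the lower one for MMP2 (31%). In 5637 it was the higher one for 7 (30.7%) and the lower one for TIMP1 (25.7%). For that reason of choice the counts describe these genes and are no test of the group.

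**Figure D1:**
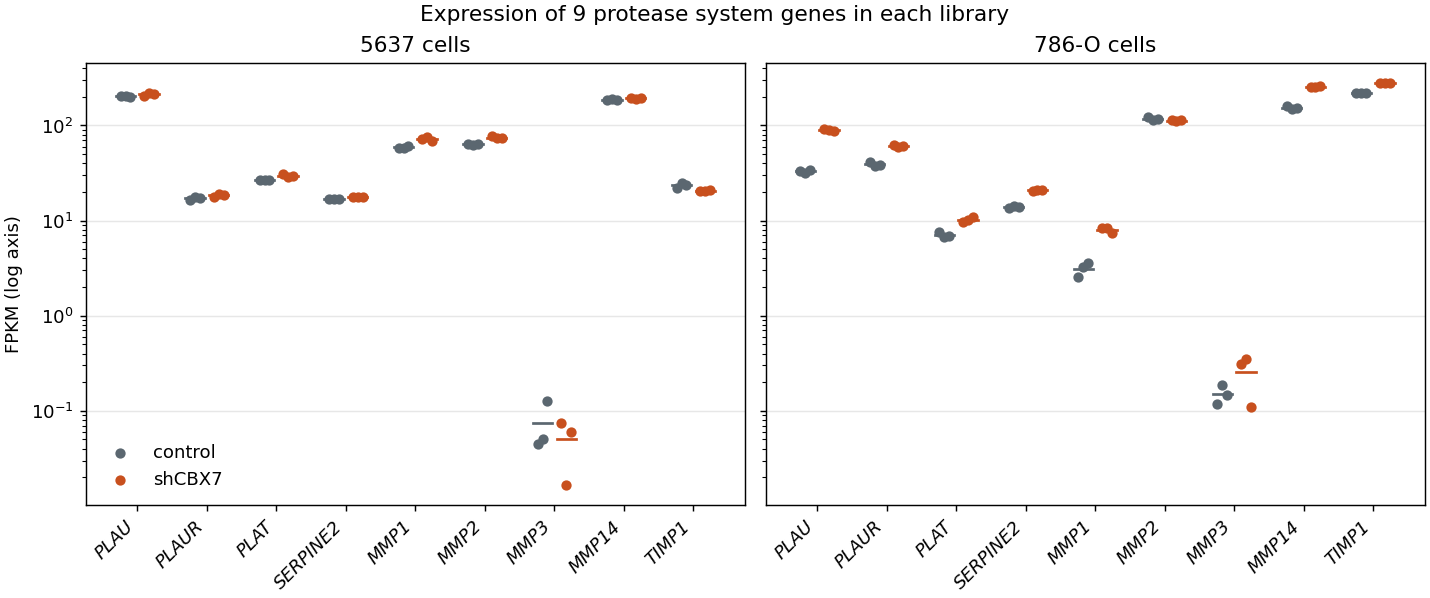
FPKM (log axis) of the 9 genes in each library of 5637 (left) and 786-O (right), with control in grey, shCBX7 in orange and a bar at the mean of 3 libraries. In 786-O the orange points of PLAU, near 89.3 FPKM, sit clear of the grey ones near 33.1 FPKM, while in 5637 both lie between 199 and 220 FPKM, and MMP3 reaches at most 0.351 FPKM in all 12 libraries.

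The start regions of some of these genes are shown because promoters of this family are textbook cases of control by AP-1, the FOS and JUN dimers. TGANTCA, with any middle base, was taken as a loose form of their site, so a match need not be an AP-1 site. Sequences are from RefSeq (GRCh38.p14), which held windows for 5 of the 9 genes by symbol, PLAU, PLAUR, SERPINE2, MMP14 and TIMP1. The 250 bases before each start were searched for TGANTCA, which reads the same on both strands, and for the GC box GGGCGG and TATAAA, each on both strands. PLAUR alone among the 5 held TGANTCA, against 6.57% of all 35116 windows of this length. MMP14 is shown as a gene whose window lacks it, and MMP10 and MMP7, which lie in one row of genes with MMP1 on chromosome 11 and were chosen after their values were seen, because theirs hold it. Each sequence is written 5′ to 3′ on the gene's own strand, with TGANTCA matches in capitals.
PLAUR, 30 bases around the match, chr19:43670337-43670366, minus strand: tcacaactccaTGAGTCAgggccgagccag
MMP10, chr11:102780629-102780878, minus strand: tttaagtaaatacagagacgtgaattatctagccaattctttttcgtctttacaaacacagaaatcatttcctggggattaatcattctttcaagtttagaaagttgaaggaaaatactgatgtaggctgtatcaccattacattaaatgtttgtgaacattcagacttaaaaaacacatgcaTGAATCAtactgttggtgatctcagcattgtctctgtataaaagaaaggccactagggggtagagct
MMP7, chr11:102530748-102530997, minus strand: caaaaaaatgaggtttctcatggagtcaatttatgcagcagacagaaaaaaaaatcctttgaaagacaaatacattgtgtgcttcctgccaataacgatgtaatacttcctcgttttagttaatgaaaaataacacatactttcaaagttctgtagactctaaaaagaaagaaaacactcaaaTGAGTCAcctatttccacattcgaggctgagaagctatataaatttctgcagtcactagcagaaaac
MMP14, chr14:22836335-22836584, plus strand: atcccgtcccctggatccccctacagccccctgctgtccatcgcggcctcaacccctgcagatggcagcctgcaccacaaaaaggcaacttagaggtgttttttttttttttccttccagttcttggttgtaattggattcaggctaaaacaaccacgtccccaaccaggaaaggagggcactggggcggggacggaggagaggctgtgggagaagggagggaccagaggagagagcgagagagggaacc

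The match began at position -186 from the RefSeq start in PLAUR, a place inside the longer span that GENCODE gives for the gene, and at -67 in both MMP10 and MMP7. The MMP10 and MMP7 windows had the same layout, with TATAAA at -31 and -30 and a GC content of 34.4% and 33.6%. The windows of MMP14, TIMP1 and SERPINE2 (2 starts) held no TGANTCA and no TATAAA but at least 1 GC box. Of the 2 windows of PLAU, one held 3 GC boxes and the other none, and neither held TGANTCA. GC boxes were in 42.6% and TATAAA in 10.7% of all windows. A match describes letters only and shows no binding, and bases outside the window were not searched.

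PLAU, the urokinase gene, had the largest change of the 9 genes in 786-O. It was at 33.6, 31.4 and 34.2 FPKM in the control libraries and 91.6, 88.7 and 87.5 FPKM in the shCBX7 libraries of 786-O. The arms were far apart, at 2.70 times the control mean, and the log2 change was 1.41 (SE 0.048, limma adjusted p = 1.50e-06). Only 97 of the 13220 tested genes rose more. In 5637 the gene was at 204, 204 and 199 FPKM in control and 206, 220 and 214 FPKM in shCBX7 libraries. There the arms were close, at 1.06 times the control mean, and the log2 change of 0.08 (95% interval 0.01 to 0.14) did not pass (limma adjusted p = 0.0581). Leaving out shCBX7 library 1 made it pass there (0.10, limma adjusted p = 0.0210), as did quantile normalization (0.08, 0.0450) and voom on recovered reads (0.08, 0.01002). PLAU lies on chromosome 10 from 73909177 to 73917497 (plus strand, GRCh38). Of its 2950 exonic bases, 916 are also exonic in C10orf55 on the opposite strand, a gene with 12 to 57 reads per library in 786-O, where PLAU had 1653 to 5128. C10orf55 was at 0.395 ± 0.166 FPKM in control and 1.10 ± 0.17 FPKM in shCBX7 libraries of 786-O (SD, n = 3 each). The sources used here do not give whether counting used strand, so reads of the shared bases cannot be told apart.

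PLAT, the tissue-type activator, rose in both lines. In 786-O it was 7.61, 6.71 and 6.92 FPKM in control and 9.70, 10.2 and 10.9 FPKM in shCBX7 libraries. Every shCBX7 library was above every control, at 1.45 times the control mean (log2 change 0.48, SE 0.064, limma adjusted p = 6.61e-04). In 5637 it was 26.6, 26.5 and 26.8 FPKM in control and 31.0, 28.5 and 29.4 FPKM after silencing. The 5637 rise was smaller, at 1.11 times the control mean (log2 change 0.15, SE 0.031, limma adjusted p = 0.00760). Urokinase message exceeded that of PLAT throughout, by 7.60 ± 0.14 times in control 5637 and 7.22 ± 0.54 times after silencing (SD, n = 3 each). In 786-O this ratio was 4.68 ± 0.27 in control and 8.74 ± 0.70 in shCBX7 libraries (SD, n = 3 each), so the arms of that line did not overlap. PLAT lies on chromosome 8 from 42175233 to 42207724 (minus strand).

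PLAUR, the urokinase receptor, rose with its ligand in 786-O. Its levels there were 41.3, 37.8 and 38.3 FPKM in control and 62.8, 59.4 and 61.0 FPKM in shCBX7 libraries. That is 1.56 times the control mean, with a log2 change of 0.63 (SE 0.050, limma adjusted p = 5.09e-05). In 5637 it was 16.3, 17.7 and 17.2 FPKM in control and 17.9, 18.97 and 18.4 FPKM after silencing. The arms nearly met, and the log2 change of 0.10 (SE 0.034, limma adjusted p = 0.0418) passed narrowly. Leaving out shCBX7 library 2 (0.09, limma adjusted p = 0.124) or 3 (0.11, 0.0945) ended the call, as did leaving out control library 1 (0.08, 0.106) or 3 (0.11, 0.0797). The ratio of ligand to receptor message was 0.846 ± 0.043 in control 786-O and 1.46 ± 0.03 after silencing, against 11.9 ± 0.6 and 11.6 ± 0.05 in 5637 (SD, n = 3 each). PLAUR lies on chromosome 19 from 43646095 to 43670547 (minus strand).

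SERPINE2, protease nexin 1, is a serpin that inhibits urokinase, plasmin and thrombin. It rose in 786-O, from 13.4, 14.3 and 13.8 FPKM in control to 20.3, 21.0 and 21.0 FPKM in shCBX7 libraries. The arms were separate, with a mean 49.7% above control (log2 change 0.55, SE 0.046, limma adjusted p = 6.44e-05). In 5637 it was 16.9, 16.7 and 16.9 FPKM in control and 17.6, 17.7 and 17.7 FPKM after silencing. Libraries of an arm were very close there, and a rise of 1.05 times passed (log2 change 0.07, SE 0.019, limma adjusted p = 0.0247). The call did not survive the loss of the shCBX7 libraries 2 (0.06, limma adjusted p = 0.0704) or 3 (0.07, 0.0728), or of the control libraries 1 (0.07, 0.0548), 2 (0.06, 0.0735) or 3 (0.07, 0.0587). SERPINE2 lies on chromosome 2 from 223975112 to 224039319 (minus strand).

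The wider plasminogen system was counted as a list. The lists were put together with earlier results of these data known, so their counts are descriptions. Of a list of 21, which holds PLAU, PLAUR, PLAT and SERPINE2 beside other inhibitors, receptors and plasminogen itself, 17 were tested in each line. In 786-O 11 rose and 4 fell, where 24.7% and 26.2% of all tested genes did, with a median change of 0.46 (all tested genes, -0.01). In 5637 10 rose and 1 fell, where 24.4% and 20.2% of all tested genes did, with a median of 0.10 (all tested genes, 0.01). Without PLAU, PLAUR, PLAT and SERPINE2, 13 were tested in each line, beside the same shares of all tested genes. Of these, 7 rose and 4 fell in 786-O (median 0.24), and 7 rose and 1 fell in 5637 (median 0.12). In 786-O 1 of those that rose, SERPINI1, and 1 of those that fell, SERPINF2, passed the filter on low values only through the arm in which they are high, so they had to differ. PLG, which encodes plasminogen, was listed at 0 in all 786-O libraries and held 3 to 12 reads per library in 5637. PLGRKT, a plasminogen receptor of the cell surface, rose in 786-O from 33.9 ± 1.2 to 64.3 ± 5.0 FPKM (limma adjusted p = 2.94e-05). SERPINI1, the serpin neuroserpin that inhibits tissue-type activator, was at 0.412 ± 0.067 FPKM in control and 1.87 ± 0.21 FPKM in shCBX7 libraries there. In 5637 the largest changes of the list were those of IGF2R, a receptor that also binds plasminogen and PLAUR, and of SERPINB2, plasminogen activator inhibitor 2. IGF2R rose from 24.7 ± 0.6 to 36.2 ± 0.5 FPKM (limma adjusted p = 2.35e-05) and SERPINB2 from 17.3 ± 0.4 to 24.3 ± 0.6 FPKM (limma adjusted p = 6.22e-05). SERPINB8 rose in both lines, from 2.55 ± 0.13 to 3.59 ± 0.10 FPKM in 5637 and from 1.55 ± 0.09 to 3.31 ± 0.07 FPKM in 786-O (limma adjusted p = 5.10e-04 and 4.84e-05; all SD, n = 3).

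MMP1, interstitial collagenase, cleaves fibrillar collagen and rose in both lines. In 786-O it was 2.52, 3.24 and 3.57 FPKM in control and 8.40, 8.31 and 7.43 FPKM in shCBX7 libraries. The lowest shCBX7 library lay well above the highest control, at 2.59 times the control mean (log2 change 1.15, SE 0.10, limma adjusted p = 8.31e-05), from 83 to 314 reads per library. In 5637 the gene was at 58.2, 58.5 and 60.7 FPKM in control and 72.2, 74.8 and 69.3 FPKM after silencing. This was the largest change of the 9 genes in 5637, at 1.22 times the control mean (log2 change 0.28, SE 0.031, limma adjusted p = 6.06e-04). MMP1 lies on chromosome 11 from 102789920 to 102798160 (minus strand), and 150 of its 1970 exonic bases are shared with the pseudogene WTAPP1 on the opposite strand, which held at most 17 reads in any library.

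MMP3, stromelysin 1, activates other metalloproteinases and was close to silent. It lies on chromosome 11 from 102835801 to 102843803 (minus strand). Its reads per library numbered 1 to 8 for 5637 and 4 to 12 for 786-O. In 5637 this is 0.0443, 0.0507 and 0.128 FPKM in control and 0.0740, 0.0166 and 0.0600 FPKM in shCBX7 libraries. In 786-O it is 0.117, 0.186 and 0.148 FPKM in control and 0.309, 0.351 and 0.110 FPKM in shCBX7 libraries. The arms overlapped in each line, and without the filter on low values the gene passed in neither (limma adjusted p = 0.614 in 5637 and 0.399 in 786-O). A difference was not detectable at this depth. Of the words of 50 bases in its GENCODE transcripts, 2.88% also occur in MMP10, so some of these few reads could belong to that gene.

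MMP2, gelatinase A, degrades denatured and basement membrane collagen and was the gene whose change in 786-O did not pass. In 5637 it was 64.3, 62.0 and 63.1 FPKM in control and 77.6, 73.0 and 73.3 FPKM in shCBX7 libraries. All shCBX7 libraries were higher, at 1.18 times the control mean (log2 change 0.24, SE 0.029, limma adjusted p = 7.89e-04). In 786-O it was 122, 114 and 116 FPKM in control and 113, 111 and 113 FPKM after silencing. The arms touched, at 113.5 FPKM for the lowest control and 113.3 FPKM for the highest shCBX7 library, and the log2 change was -0.06 (95% interval -0.16 to 0.04, limma adjusted p = 0.285). MMP2 lies on chromosome 16 from 55389700 to 55506691 (plus strand).

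MMP14, a membrane-bound enzyme that cleaves collagen at the cell surface and activates MMP2, had the most message of all metalloproteinases in each arm of each line. In 786-O it rose from 161, 147 and 151 FPKM in control to 256, 254 and 259 FPKM in shCBX7 libraries. The gap between arms was wide, at 1.67 times the control mean (log2 change 0.74, SE 0.047, limma adjusted p = 1.83e-05). In 5637 it was 184, 188 and 187 FPKM in control and 194, 192 and 193 FPKM after silencing. That difference, a log2 change of 0.05 (95% interval 0.01 to 0.09), did not pass (limma adjusted p = 0.0603). It passed there with quantile normalization (0.07, limma adjusted p = 0.0198) and with voom on recovered reads (0.05, limma adjusted p = 0.0348). MMP14 lies on chromosome 14 from 22836557 to 22849027 (plus strand).

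TIMP1 inhibits most secreted metalloproteinases, and it moved in opposite directions in the lines. In 5637 it fell, from 22.01, 24.9 and 23.6 FPKM in control to 20.2, 20.5 and 20.8 FPKM in shCBX7 libraries. All shCBX7 libraries were lower, at 0.873 times the control mean (log2 change -0.19, SE 0.041, limma adjusted p = 0.0101). In 786-O it rose, from 221, 219 and 220 FPKM in control to 278, 278 and 277 FPKM in shCBX7 libraries. The libraries of an arm were within 2 FPKM of each other there, and the rise was 1.26 times (log2 change 0.34, SE 0.037, limma adjusted p = 2.37e-04). TIMP1 lies on chromosome X from 47582313 to 47586789 (plus strand), inside SYN1 on the other strand, with which it shares 0 exonic bases.

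**Figure D2:**
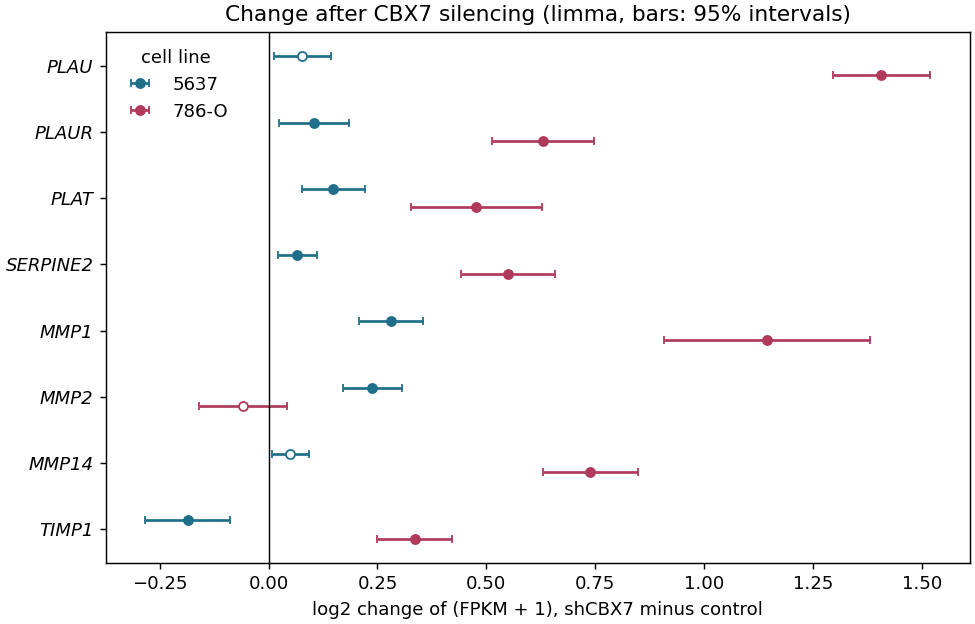
Log2 change of FPKM + 1, shCBX7 minus control, for the 8 tested genes in 5637 (blue) and 786-O (red), with 95% intervals from limma and open points where the adjusted p missed 0.05. Most red points lie far right of the blue ones, from 0.34 for TIMP1 to 1.41 for PLAU, while MMP2 has the blue point on the right and the blue point of TIMP1 lies left of 0.

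The difference between the lines was itself tested, with the line-by-silencing term of one limma model of the 12 libraries. It passed for all 8 genes, where 53.3% of 12777 tested genes passed. The change was more positive in 786-O for 7 of the 8 (24.3% of all genes) and more positive in 5637 for MMP2 (29% of all genes). PLAU differed most, by 1.33 on the log2 scale (95% interval 1.21 to 1.45, limma adjusted p = 6.10e-09). PLAT differed least among the 7, by 0.33 (95% interval 0.17 to 0.48, limma adjusted p = 0.00217). CBX7 was lowered further in 786-O, so the line and the extent of silencing cannot be told apart here.

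The order of levels differed between the lines. In control 5637 it ran PLAU, MMP14, MMP2, MMP1, PLAT, TIMP1, PLAUR, SERPINE2 and MMP3, and the libraries of neighbours overlapped only for PLAUR and SERPINE2. In control 786-O it ran TIMP1, MMP14, MMP2, PLAUR, PLAU, SERPINE2, PLAT, MMP1 and MMP3, and no neighbours overlapped. After silencing PLAU stood above PLAUR in 786-O, and the rest of that order was as in control. In 5637 the order after silencing was as in control, with MMP2 and MMP1 now overlapping and PLAUR and SERPINE2 apart.

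Among the metalloproteinases as a family, MMP14 and MMP2 made up most of the message in each line, with MMP1 close to MMP2 in 5637 alone. Of 23 metalloproteinase genes, 9 were tested in 5637, where 4 rose and 1 fell (24.4% and 20.2% of all tested genes), and 13 in 786-O, where 7 rose and 2 fell (24.7% and 26.2%). Among the 7, MMP10 passed the filter on low values only through its shCBX7 libraries, so it had to differ. Without MMP1, MMP2, MMP3 and MMP14, 2 of 6 tested genes rose and 1 fell in 5637 (median log2 change -0.002). In 786-O 5 of 10 rose, MMP10 among them, and 2 fell (median 0.18), beside the same shares of all tested genes. The summed level of the 23 genes was 353 ± 2 FPKM in control and 389 ± 4 FPKM in shCBX7 libraries of 5637, and 302 ± 13 and 417 ± 5 FPKM in 786-O (SD, n = 3 each). MMP14, MMP2 and MMP1 together held 87.5% ± 0.2 of it in control 5637 and 90.5% ± 0.4 in control 786-O (SD, n = 3). In 786-O the share of MMP14 was 50.7% ± 0.2 in control and 61.4% ± 0.4 after silencing, and that of MMP2 38.8% ± 0.3 and 26.9% ± 0.1 (SD, n = 3 each). MMP1 held only 1.03% ± 0.21 in control 786-O, less than MMP15 at 3.45% ± 0.11 and about as much as MMP9 at 1.14% ± 0.08, and 1.93% ± 0.14 after silencing (SD, n = 3 each). In 5637 the share of MMP14 was 52.8% ± 0.5 and 49.6% ± 0.4, and that of MMP1 16.8% ± 0.3 and 18.6% ± 0.6 (SD, n = 3 each). The shares of an arm did not overlap those of the other for any of these pairs.

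**Figure D3:**
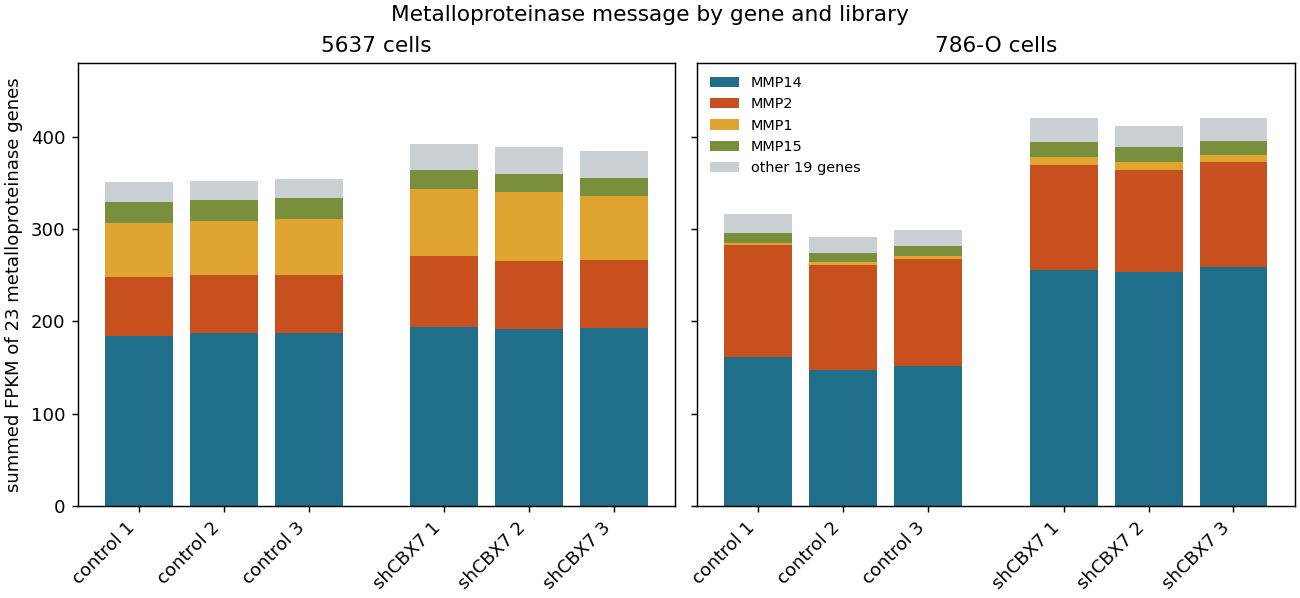
Summed FPKM of 23 metalloproteinase genes in each library of 5637 (left) and 786-O (right), stacked by gene. The MMP14 segment is the largest in all 12 bars, the MMP1 segment is wide in 5637 and thin in 786-O, and the bars of shCBX7 libraries reach 384 to 392 FPKM in 5637 and 412 to 420 FPKM in 786-O.

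Other metalloproteinases that moved included MMP10, MMP9, MMP15 and MMP16. MMP10, stromelysin 2, lies 9291 bases from MMP1 and had the largest change of the family in 5637, from 9.23 ± 0.16 to 15.6 ± 0.9 FPKM (log2 change 0.69, limma adjusted p = 6.72e-05). In 786-O it was at 0.152 ± 0.109 FPKM in control, with 1 to 8 reads per library, and 1.26 ± 0.12 FPKM in shCBX7 libraries, with 38 to 41. There it passed the filter on low values only through its shCBX7 libraries, so it had to differ and its call is not used. MMP9, gelatinase B, rose in 786-O from 3.44 ± 0.38 to 7.61 ± 0.65 FPKM (limma adjusted p = 8.00e-05). MMP15, a membrane enzyme, fell in 5637 from 23.1 ± 0.3 to 20.2 ± 0.2 FPKM and rose in 786-O from 10.4 ± 0.5 to 16.4 ± 0.6 FPKM (limma adjusted p = 5.23e-04 and 7.46e-05). MMP16, another membrane enzyme, rose in 5637 from 3.22 ± 0.11 to 4.24 ± 0.18 FPKM (limma adjusted p = 8.43e-04; all SD, n = 3).

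MMP1, MMP3 and MMP10 belong to a row of 9 metalloproteinase genes that spans 435 kb of chromosome 11 in the order MMP7, MMP20, MMP27, MMP8, MMP10, MMP1, MMP3, MMP12 and MMP13. Not every tested gene of the row was called, and 6 of the 9 in 5637 and 5 in 786-O were not tested. Only MMP10, MMP1 and MMP13 passed the filter on low values in 5637, and MMP10 and MMP1 rose (24.4% of all tested genes). Those and MMP7 passed it in 786-O, where MMP1 and MMP13 rose (24.7% of all tested genes) and MMP10 was admitted through its shCBX7 libraries alone. MMP13, collagenase 3, was at 1.44 ± 0.13 FPKM in control and 1.85 ± 0.11 FPKM after silencing in 786-O (limma adjusted p = 0.0318). MMP7, whose start region is laid out like that of MMP10, did not pass there, at 3.01 ± 0.66 and 2.90 ± 0.17 FPKM (log2 change -0.03, limma adjusted p = 0.833; SD, n = 3 for each mean). MMP8, MMP12, MMP20 and MMP27 were under 0.5 FPKM in every library.

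Inhibitors and activators of the metalloproteinases were called more often in 786-O, a difference between lists of unequal tested members that was not tested. Of a list of 17 that includes TIMP1, 13 were tested in 786-O, where 10 rose and 1 fell (24.7% and 26.2% of all tested genes, median change 0.40), and 15 in 5637, where 3 rose and 3 fell (24.4% and 20.2%, median -0.00). TIMP1 made up 89.98% ± 0.18 of the summed TIMP message in control 786-O and 8.91% ± 0.62 in control 5637, where TIMP3 held 60.7% ± 0.8 (SD, n = 3). TIMP3 rose in 5637 from 160 ± 4 to 178 ± 0.76 FPKM (log2 change 0.15, limma adjusted p = 0.00184). The summed metalloproteinase message per summed TIMP message was 1.34 ± 0.01 in control and 1.40 ± 0.02 in shCBX7 libraries of 5637, and 1.24 ± 0.05 and 1.35 ± 0.01 in 786-O (SD, n = 3 each). TFPI2, a Kunitz inhibitor of plasmin and other proteases in the matrix, rose in 786-O from 141 ± 4 to 351 ± 6 FPKM (limma adjusted p = 9.80e-07). FURIN, the convertase that activates MMP14, rose there from 19.5 ± 1.5 to 31.0 ± 0.6 FPKM (limma adjusted p = 1.18e-04). CTSB, the lysosomal protease cathepsin B, fell in both lines, from 116 ± 4 to 96.4 ± 0.4 FPKM in 5637 and from 102 ± 3 to 59.9 ± 1.1 FPKM in 786-O (limma adjusted p = 2.92e-04 and 1.25e-05). CTSK, cathepsin K, fell in 5637 from 11.9 ± 0.4 to 9.50 ± 0.61 FPKM (limma adjusted p = 0.00226). THBS1, thrombospondin 1, rose in both, with log2 changes of 0.43 in 5637 and 0.53 in 786-O (limma adjusted p = 5.83e-05 and 4.72e-05; all SD, n = 3).

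**Figure D4:**
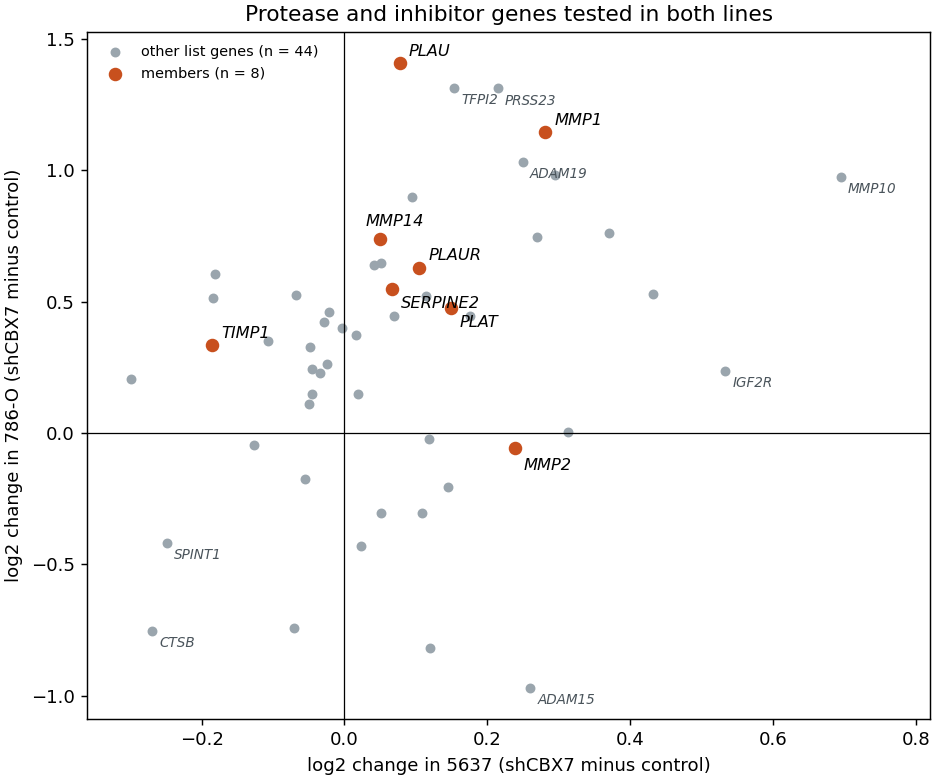
Log2 change (shCBX7 minus control) in 5637 (horizontal) and 786-O (vertical) of the protease and inhibitor genes of the lists that were tested in both lines, with 8 of the 9 followed genes in orange and 44 others in grey. PLAU and MMP1 lie high in the plot with PRSS23 and TFPI2, while TIMP1 lies left of 0 and MMP2 just under the horizontal line.

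The genes with a pair of changes most like that of PLAU were sought over the 10359 genes tested in both lines, by the distance between the pairs of log2 changes. The nearest were IFI35, SH3RF2 and the entry MIR93, at 0.06 each. IFI35 changed by 0.12 in 5637, which did not pass, and by 1.37 in 786-O (limma adjusted p = 0.129 and 2.15e-06). SH3RF2 changed by 0.13 and 1.40 (limma adjusted p = 0.0106 and 2.23e-06). MIR93 changed by 0.07 in 5637, which did not pass (limma adjusted p = 0.864), and by 1.35 in 786-O. In 786-O MIR93 was at 0.480 FPKM in control and 2.87 FPKM in shCBX7 libraries on average. It passed the filter on low values only through its shCBX7 libraries, so it had to differ and its call is not used. The points of this comparison share the 12 libraries of the study.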

How the data were processed

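RNA-seq libraries of 5637 and 786-O cells, 3 shCBX7 and 3 control each, were prepared with a kit that keeps strand, per the labels' protocols. FPKM values as deposited by the authors fill 1 column per library, per the file headers. No aligner, counter or strand setting is given in the sources used here, and the submitters' processing notes list mm10 although the samples are human. GENCODE release 29 (GRCh38) has all 58735 genes of the 786-O table at the same positions. The deposited gene length column (other unit: bases) and the FPKM gave whole reads (tolerance 0.01) for 58735 genes in 786-O and 28077 of 29890 in 5637, used for depth and 1 alternative. FPKM are not counts, so log2(FPKM + 1) was tested with limma 3.58.1 (R 4.3.3, trended eBayes) over genes whose mean reached 0.5 FPKM, within each line and as an interaction over 12 libraries. Columns of 5637 controls could be tied to the group only, and keep the table's number. No 2 libraries of a line were identical. The method was tested on simulated data. Alternatives were a pseudocount of 0.1, no filter, quantile normalization, median centring, no trend, voom on recovered reads, each library left out and a replicate block (in 5637 by column number, chosen after seeing the data). Named genes are the 9, CBX7, up to 4 called genes per list and line with the largest change at a mean of at least 1 FPKM, and the 3 genes nearest PLAU, and some genes are not reported here. TIMP3, MMP7, PLG, marker genes, overlapping genes and genes named in both lines under a rule met in 1 were named after their values were seen. The members and lists were chosen with earlier results of these data known.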

Additional observations from a re-analysis of the deposited data

Results flagged for a closer look

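Each of the 8 tested genes had an effect of silencing that differed between the lines by the limma interaction term. On the log2 scale, 786-O minus 5637, the difference was 1.33 for PLAU, 0.86 for MMP1, 0.69 for MMP14, 0.52 for PLAUR, 0.52 for TIMP1, 0.48 for SERPINE2, 0.33 for PLAT and -0.30 for MMP2. Adjusted p-values from limma ran from 6.10e-09 for PLAU to 0.00217 for PLAT, beside 53.3% of all genes passing. TIMP1 is the gene of the 8 that passed in opposite directions, and MMP2 the gene with the more positive change in 5637.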

How the results depend on the processing

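In 786-O the same 7 of the 9 genes were called under every alternative run, and the difference between lines was called for the same 8 in each of its alternatives. In 5637 6 of the 9 were called, 4 with median centring, 8 with voom on recovered reads and 4 to 7 when 1 library was left out. Quantile normalization also called 6, with PLAU and MMP14 in place of PLAUR and SERPINE2. PLAT, MMP1, MMP2 and TIMP1 were called in all of these, and PLAUR and SERPINE2 lost their calls in several, among them median centring (limma adjusted p = 0.0578 and 0.0629). No change reversed its direction. With the replicate block in 786-O 7 of the 9 genes and 6723 of all genes were called, against 6736 without it. The labels do not say that equal numbers share a culture, and deviations of same-numbered libraries correlated at 0.0833, 0.0765 and 0.0570, each library best with its own number. In 5637 the control titles give no number of their own. A replicate block on the number in the column names, chosen after seeing the data, gave 4942 genes against 5651 and 5 of the 9, without SERPINE2 (limma adjusted p = 0.0766), and same-numbered libraries correlated at 0.0234, -0.0314 and -0.0075. MMP3 is limited by its reads, at most 12 per library.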

Other observations

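Of 21 ADAM and ADAMTS genes, which shed surface proteins or cut proteoglycans, 13 were tested in each line, with 5 higher and 5 lower in 786-O, where 24.7% and 26.2% of all tested genes were, and 4 higher and 1 lower in 5637, where 24.4% and 20.2% were. ADAM15 rose in 5637 from 31.8 ± 0.4 to 38.2 ± 1.1 FPKM and fell in 786-O from 35.2 ± 2.7 to 17.5 ± 1.2 FPKM (limma adjusted p = 3.67e-04 and 3.72e-05, SD, n = 3), and its change differed between lines by -1.23 (limma adjusted p = 2.27e-07). ADAMTS15 did likewise, with log2 changes of 0.12 and -0.82 (limma adjusted p = 0.00731 and 1.92e-04). ADAM19 rose in both lines, with 0.25 and 1.03 (limma adjusted p = 2.92e-04 and 5.81e-06).

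Membrane serine proteases and their Kunitz inhibitors, many of them known from epithelium, fell in 5637 in 5 of 11 tested members (20.2% of all tested genes) and rose in 1, PRSS23 (24.4%). Urothelial and epithelial markers were higher in 8 of 11 tested members in the same libraries (24.4% of all tested genes), and the part of this was not tested. The falls included TMPRSS4 from 4.78 ± 0.11 to 3.36 ± 0.09 FPKM, PRSS8 from 2.83 ± 0.12 to 2.06 ± 0.09 FPKM, PRSS22 from 22.5 ± 0.6 to 18.9 ± 0.3 FPKM and the inhibitor SPINT1 from 94.7 ± 0.9 to 79.6 ± 2.5 FPKM (limma adjusted p = 1.44e-04 to 9.64e-04, SD, n = 3). In 786-O 6 members were tested, of which 3 rose and 1 fell (24.7% and 26.2% of all tested genes), and 1 of the 3, TMPRSS2, passed the filter on low values only through its shCBX7 libraries. PRSS23 rose there from 17.5 ± 1.4 to 44.8 ± 0.4 FPKM and DPP4 from 27.8 ± 1.6 to 35.7 ± 0.3 FPKM (limma adjusted p = 5.03e-06 and 0.00109, SD, n = 3).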
